A study of Mus musculus with 8 samples.

Results

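The ribosomal RNA repeat on chromosome 17 was described by 544 cytosines. They are all the cytosines that the files list in the 10 kb of chromosome 17 around this copy (mouse assembly GRCm38) with 10 or more reads in each of the 8 libraries, and they span chr17:39843014-39848799. They made up 50.4% of the 1079 cytosines listed there in any file. Genome-wide, 567907 of 3644015 listed cytosines reached the same depth. The 544 cytosines belonged to 388 CpG dinucleotides, of which 156 were read on both strands, with 282 cytosines on the plus strand and 262 on the minus strand.

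DNA methylation was measured by reduced representation bisulfite sequencing, in which DNA is cut at CCGG sites and unmethylated cytosines are converted before sequencing. The DNA came from tumors of NIC-5231, a mouse cell line from ErbB2-driven mammary tumors, injected into a mammary fat pad of NSG mice aged 5 to 7 weeks. Groups of 5 mice were injected intraperitoneally every 2 days with vehicle (labelled DMSO), with 10 mg/kg of C29, with 1 mg/kg of 5-azadC, or with C29+5-azadC at those same doses. Each group had 2 libraries, each a pool of DNA from 2 mice, so the spread between libraries is a spread between pools. C29 is an inhibitor of the nuclear receptor ERRα, and 5-azadC (decitabine) is a nucleoside analog that traps DNA methyltransferases. Tumor and host are both mouse, so the DNA of tumor cells and of host cells cannot be told apart.

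Ribosomal RNA genes lie in tandem arrays on several mouse chromosomes, and RNA polymerase I transcribes each unit into a long precursor that is cut into the 18S, 5.8S and 28S RNAs. Cells keep a part of these copies silent, and the silent copies carry more CpG methylation than the active ones. An assembly holds only a few of the copies, so reads of many copies align to the same place, and an intermediate methylation level there is an average over copies and cells.

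The window holds a part of such a unit rather than a whole one. The annotated stretch runs over 5815 bases (chr17:39843013-39848827, 65.0% G and C) and has 69 CCGG sites with a median spacing of 54.0 bases. GENCODE M21 places the non-coding RNA Gm26917 (ENSMUSG00000097971.3) at chr17:39843013-39846341 on the plus strand. RefSeq places Rn18s-rs5, an 18S ribosomal RNA related sequence, at chr17:39846354-39848202 on the plus strand, and GENCODE calls chr17:39846353-39848827 the rRNA gene CT010467.1 (ENSMUSG00000106106.2) on the minus strand. The non-coding genes Gm42418 and AY036118 overlap the 18S part. No 28S sequence is annotated in the window, so the name 45S copy covers the sequence before 18S, 18S itself and a short stretch after it. A search of the assembly with these 5815 bases found 24 other matches of 100 bases or more. Of these, 4 reached 95% identity, and all 4 lay in 18S or began 2 bases before it. The longest of those 4 was 908 bases at 98.0% identity.

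A set of sequences shows where the results below arise. The first lines are restriction fragments, from the base after one cut to the base before the next, on the plus strand of GRCm38 with every CpG in capitals. The first is the fragment chr17:39845236-39845276, where 1 library differed most from the others among 62 fragment strands with at least 4 cytosines of 1000 or more reads in every library. The second is its direct neighbour chr17:39845277-39845329. The third is chr17:39844814-39844851, with the next largest difference among those 62, and the fourth is chr17:39845926-39845960, with the smallest.
Fragment 39845236: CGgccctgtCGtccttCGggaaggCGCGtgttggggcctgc
Fragment 39845277: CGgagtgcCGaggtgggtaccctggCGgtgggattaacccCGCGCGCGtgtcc
Fragment 39844814: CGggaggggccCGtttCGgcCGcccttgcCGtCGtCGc
Fragment 39845926: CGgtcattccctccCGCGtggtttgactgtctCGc

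The next lines hold the single cytosines named below, again on the plus strand, with their CpGs in capitals. They are chr17:39848434-39848475, chr17:39844974-39845015 and chr17:39844879-39844920 for the least methylated cytosines, chr17:39845626-39845678 for the cytosines that were lower with 5-azadC, and chr17:39846882-39846923 for the deepest one that was higher.
Stretch 39848434: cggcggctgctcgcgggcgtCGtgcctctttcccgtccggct
Stretch 39844974: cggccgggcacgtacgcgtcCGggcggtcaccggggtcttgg
Stretch 39844879: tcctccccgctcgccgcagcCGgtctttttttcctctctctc
Stretch 39845626: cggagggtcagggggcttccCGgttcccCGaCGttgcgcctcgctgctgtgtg
Stretch 39846882: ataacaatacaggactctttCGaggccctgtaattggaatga

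The copy was read far more deeply than the rest of the genome. The median number of reads per cytosine in a library lay between 3203 and 5796.5 over the 544 cytosines, against 34 to 56 over all cytosines tested. The window took 3.63% to 4.21% of all the reads that a library counted over its cytosines, which totalled 51359825 to 81299065 per library. Of the 544 cytosines, 444 had 1000 or more reads in every library, while 40 had fewer than 100 reads in at least 1 library. Nearly all, 542 (99.6%), lay within 50 bases of a CCGG site, as did 71.5% of the 1192 CpG cytosines of the annotated stretch. At the median depth the counting error of a cytosine was at most 0.770 percentage points (SD), and this covers counting error only, since PCR copies of a molecule are not marked.

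C29 replicate 2 stood apart from the other 7 libraries in this window. The comparisons below of means, the 10 kb window and the tiles of the copy are given with and without it. It was the lowest of the 8 libraries at 453 of the 544 cytosines (83.3%), against 3.87% of all cytosines tested. Its spike-in controls did not lie far from the rest: 0.329% of the unmethylated control was called methylated, the highest of a range from 0.216%, and 97.9% of the methylated control. It listed the most cytosines in the window, 1015 against 772 to 919 in the others. This was so over the whole genome too, with 2195266 against 1773373 to 1974504.

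With vehicle the copy was methylated at about 66% on average. The mean over the 544 cytosines was 65.8% and 66.1% in the DMSO libraries (65.9% ± 0.248, SD, n = 2). This was well above the mean of all cytosines tested, which was 34.9% in both. Between 88.2% and 90.6% of the 544 cytosines were 40% to 80% methylated in the 7 libraries other than C29 replicate 2, where the share was 73.3%. Only 12.5% to 17.2% of all cytosines tested fell in that range. Intermediate levels thus prevailed along the copy, whereas they were uncommon over all cytosines tested. At 146 other cytosines with 1000 or more reads in every library they were common too, with 58.2% to 64.4% of cytosines in that range and DMSO means of 54.2% and 55.0%.

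All treated libraries lay below both vehicle libraries. The mean over the 544 cytosines was 63.2% and 50.5% with C29, 60.7% and 63.6% with 5-azadC, and 63.6% and 62.1% with C29+5-azadC. Relative to DMSO, the group mean differed by -3.81 points with 5-azadC (62.1% ± 2.00, SD, n = 2), by -3.08 points with C29+5-azadC (62.9% ± 1.07, SD, n = 2) and by -9.08 points with C29 (56.9% ± 8.95, SD, n = 2). The C29 value rested on replicate 2. Replicate 1 alone differed from DMSO by -2.75 points and replicate 2 alone by -15.4 points. These comparisons share the DMSO libraries.

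**Figure D1:**
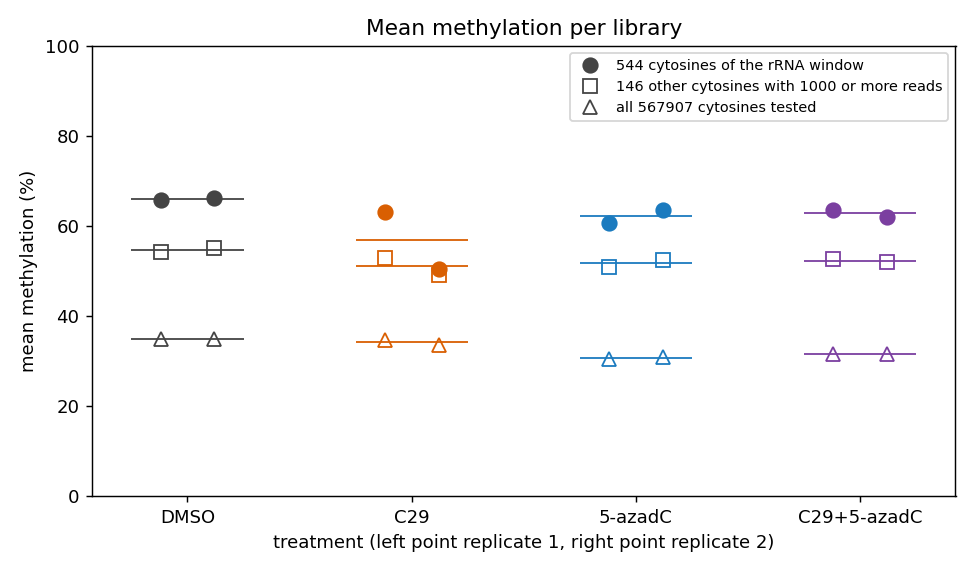
Mean methylation in percent (y axis) for each of the 8 libraries by treatment (x axis), with the mean of the 2 libraries as a line, for the 544 cytosines of the rRNA window (filled circles), 146 other deeply read cytosines (squares) and all 567907 cytosines tested (triangles). Both DMSO libraries are the highest for the rRNA window, at 65.8% and 66.1%, and C29 replicate 2 is the lowest, at 50.5%.

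Whether 5-azadC lowers methylation of the copy was asked first by setting the 4 libraries with the drug against the 4 without it. The mean over the 544 cytosines was 62.5% ± 1.38 (SD, n = 4) with 5-azadC and 61.4% ± 7.36 (SD, n = 4) without it, a difference of 1.10 points upward. Without C29 replicate 2, the 3 libraries lacking the drug averaged 65.0% ± 1.60 (SD, n = 3), and the difference was -2.53 points. The direction was therefore set by 1 library. Over all cytosines tested the difference was -3.37 points, and it was -3.69 points without C29 replicate 2.

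The test across all 10 kb windows of the genome made no call for the copy. From pooled reads, the window was 0.913 points higher with 5-azadC, with q = 0.920 in the logistic F test with correction for overdispersion (q by the Benjamini-Hochberg method over 74682 windows). The share of windows called at q below 0.05 was 0%, so the copy could not be told from other windows by a call. At an unadjusted p below 0.05, 13.7% of windows were lower and 1.04% higher. Without C29 replicate 2 the difference was -2.42 points, with q = 0.423, and it was again not called. The median difference over all windows was -5.28 points.

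Along the copy the picture was the same in each of its 1 kb tiles. With 5-azadC the 6 tiles differed by 0.533 to 1.22 points upward, with q from 0.908 to 0.979 in the same F test over 113649 tiles. None was called, as was the case for 0% of all tiles, and none of the 6 had an unadjusted p below 0.05, against 12.5% of all tiles that were lower and 1.33% that were higher. The direction again rested on 1 library. Without C29 replicate 2 all 6 tiles were lower with 5-azadC, by -2.83 to -2.14 points (F test, q from 0.342 to 0.514). Of the 6, 1 then had an unadjusted p below 0.05, against 11.2% of all tiles that were lower.

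Single cytosines gave no call for 5-azadC either. None of the 544 reached q below 0.05, and neither did any other cytosine (0%) in the F test. At an unadjusted p below 0.05, 6 of the 544 (1.10%) were lower with 5-azadC and 0 were higher, against 6.39% lower and 1.52% higher over all cytosines tested. The median difference over the 544 was 0.950 points, against 0 over all. Without C29 replicate 2, 74 of the 544 (13.6%) were lower at an unadjusted p below 0.05, against 5.80% of all, and the median difference was -2.44 points. The 4 libraries with 5-azadC were all below the 4 without it at 2 cytosines (0.368%), while this held for 1.52% of all cytosines.

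Against vehicle alone, the group mean of most cytosines of the copy was lower with each treatment. It lay below the DMSO mean at 82.4% of the 544 with 5-azadC (against 36.3% of all). With C29 this held at 96.3% (against 27.4%) and with C29+5-azadC at 84.9% (against 33.2%). Both 5-azadC libraries lay below both DMSO libraries at 298 of the 544 cytosines (54.8%, against 12% of all), both C29 libraries at 325 (59.7%, against 6.65%), and both C29+5-azadC libraries at 254 (46.7%, against 9.46%). All 6 treated libraries lay below both DMSO libraries at 168 cytosines (30.9%, against 1.8% of all). Leaving out C29 replicate 2 the number was again 168, against 2.59% of all. Neighbouring cytosines are read on the same molecules, so these counts are not independent observations. The shares over all cytosines are not a like scale either. Cytosines unmethylated in both DMSO libraries cannot meet any of these orders. Most cytosines tested also lay outside 40% to 80% methylation and had far fewer reads than those of the copy.

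Few of the differences from vehicle reached 25 points. With the likelihood-ratio test on summed reads, q below 0.01 and at least 25 points, 9 of the 544 cytosines were called for 5-azadC (8 lower), against 13.1% of all cytosines. For C29 there were 7 (6 lower), against 10.7%, and for C29+5-azadC 5 (4 lower), against 13.5%. With no minimum difference, 376 (69.1%) were called for 5-azadC, against 30.5% of all, 472 (86.8%) for C29, against 26.4%, and 343 (63.1%) for C29+5-azadC, against 28.4%. That test covers counting error only and takes no account of the spread between libraries, and the cytosines of this window have far more reads than others. With the overdispersion correction and the F test, 0 cytosines were called for each treatment.

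C29 was associated with lower values in the 4 against 4 comparison, without a call. The 10 kb window differed by -3.99 points with C29 (F test, q = 0.939, with 0% of windows called), and by -1.17 points without C29 replicate 2. At an unadjusted p below 0.05, 2.34% of all windows were lower and 3.41% higher, and this window was not among them. The 6 tiles differed by -4.88 to -2.96 points, with q from 0.852 to 0.893 in the F test (0% of tiles called), and by -1.83 to -0.548 points without C29 replicate 2 (q from 0.921 to 1). With all libraries none of the 6 had an unadjusted p below 0.05, against 2.61% of all tiles that were lower and 3.73% that were higher. At an unadjusted p below 0.05, 18 of the 544 cytosines were lower (3.31%, against 2.27% of all) and 1 was higher, against 2.91% of all. No cytosine was called at q below 0.05 in the F test, in the copy or elsewhere (0%). The 4 libraries with C29 were all below the other 4 at 18 cytosines (3.31%, against 0.44%).

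The difference made by 5-azadC was opposite in sign with and without C29, which rested on C29 replicate 2, and the interaction was not called. From pooled reads the 10 kb window changed by -3.44 points from DMSO to 5-azadC and by 5.26 points from C29 to C29+5-azadC. The interaction term had q = 0.945 in the F test (0% of windows called). With C29 replicate 1 as the lone library of its group, assumed to vary like the others, the change from C29 to C29+5-azadC was -0.559 points, of the same sign as that from DMSO to 5-azadC, and the interaction had q of 1 in the F test.

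The regions of the copy had like levels. Upstream of 18S, 395 cytosines averaged 65.8% and 65.7% in the DMSO libraries, 60.2% and 63.2% with 5-azadC, 62.8% and 49.4% with C29, and 62.9% and 61.9% with C29+5-azadC. In 18S, the 54 cytosines averaged 62.6% and 65.6% with DMSO, 59.7% and 61.8% with 5-azadC, 62.5% and 52.6% with C29, and 63.4% and 62.3% with C29+5-azadC. Downstream of 18S, the 95 cytosines averaged 67.7% and 68.3% with DMSO, 63.7% and 65.8% with 5-azadC, 65.4% and 53.95% with C29, and 66.7% and 62.8% with C29+5-azadC. In each region both 5-azadC libraries lay below both DMSO libraries, with differences of -4.01, -3.35 and -3.22 points on average in this order. With C29+5-azadC the groups overlapped in 18S, where replicate 1 lay above DMSO replicate 1 and the group difference was -1.25 points, while both libraries lay below both DMSO libraries upstream and downstream. By tile, the difference of 5-azadC from DMSO ran from -5.12 points in the first, at the start of Gm26917, to -1.98 points in the fifth, within 18S.

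**Figure D2:**
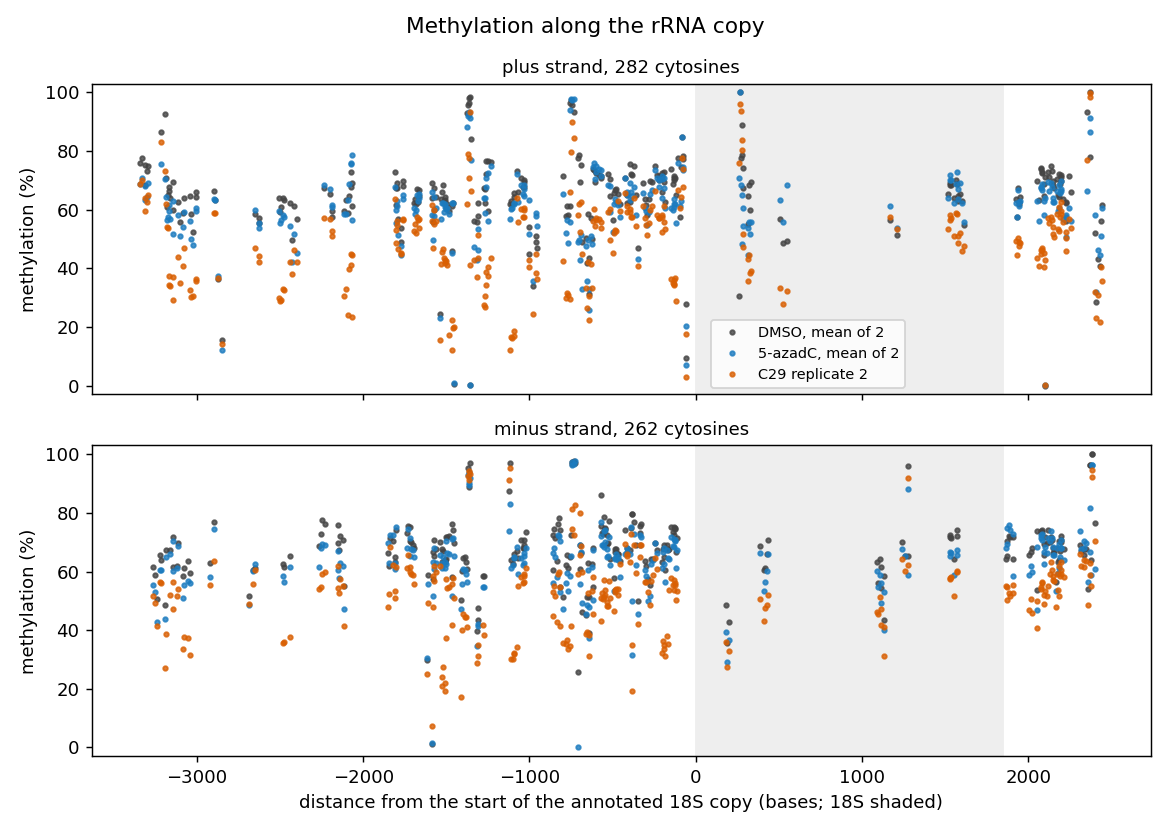
Methylation in percent (y axis) of each cytosine against its distance in bases from the start of the annotated 18S copy (x axis), for 282 cytosines of the plus strand (top) and 262 of the minus strand (bottom), with 18S shaded. Points are the mean of the 2 DMSO libraries, the mean of the 2 5-azadC libraries and C29 replicate 2. DMSO and 5-azadC points mostly overlap near 60% to 70%, while those of C29 replicate 2 drop in runs.

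Both strands showed like levels. Over the 156 CpGs read on both strands, plus minus minus averaged -1.01 points over the 8 libraries, and it ran from -2.20 points in C29 replicate 2 to 0.298 points in DMSO replicate 1. Over all cytosines of a strand, the plus strand averaged 64.8% and 64.6% with DMSO, 59.8% and 62.2% with 5-azadC, 62.1% and 48.8% with C29, and 62.8% and 61.0% with C29+5-azadC. The minus strand averaged 66.8% and 67.8% with DMSO, 61.7% and 65.0% with 5-azadC, 64.3% and 52.4% with C29, and 64.5% and 63.3% with C29+5-azadC. The difference of 5-azadC from DMSO was thus alike on the strands, at -3.73 points on the plus and -3.89 points on the minus strand. Single CpGs could differ between their strands: 36 of the 156 were 20 or more points apart in C29 replicate 2, against 11 to 18 in each other library.

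The lower level of C29 replicate 2 was uneven along the copy. As in the other treated libraries, its difference from DMSO varied more between restriction fragments than within them. The 544 cytosines lay on 101 fragment strands, meaning 1 strand of 1 fragment, and 62 of these had at least 4 cytosines that all had 1000 or more reads in every library. C29 replicate 2 was below the DMSO mean on all 62, with a median difference of -14.6 points and a spread of 9.13 points (SD over fragment strands). For C29 replicate 1 the same spread was 3.16 points, for the 5-azadC libraries 3.67 and 3.10 points and for the C29+5-azadC libraries 2.91 and 3.10 points. Among the cytosines of the same fragment strand the spread of C29 replicate 2's difference was 4.71 points (pooled SD within 62 fragment strands, 394 cytosines). The level thus also varied inside fragments. In the other treated libraries this spread was 1.69 to 2.01 points. The share of variance between fragment strands was 79.9% in C29 replicate 2 and 70.5% to 78.9% in the other treated libraries. On the plus strand of the fragment that starts at 39843169, C29 replicate 2 was at 61.9%, 54.2% and 53.6% at the first 3 cytosines, from 6127 to 6155 reads. It was at 29.2% to 37.4% at the 5 from 39843186 on, from 3595 to 3624 reads. Grouping by fragment was chosen after the values had been seen, and it is a description with no test.

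Neighbouring fragments could differ widely in that library. On the plus strand of fragment 39845236, printed above, its 5 cytosines averaged 63.6% and 63.2% with DMSO, 61.3% in C29 replicate 1 and 16.1% in C29 replicate 2. The other libraries lay between 58.9% and 64.1%. On the plus strand of the next fragment, 39845277, C29 replicate 2 was at 59.4%, a difference of -9.98 points from DMSO. On the minus strand of fragment 39844814 it was at 29.8% against a DMSO mean of 65.9%, and on the plus strand of the same fragment at 39.7% against 59.03%. On the minus strand of fragment 39845926 it was at 66.8%, a difference of -2.29 points from DMSO. Drops as large as those at 39845236 and 39844814 were seen in no other library there. On the minus strand of 39845926 both C29+5-azadC libraries were lower than C29 replicate 2, at 64.6% and 65.7%.

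**Figure D3:**
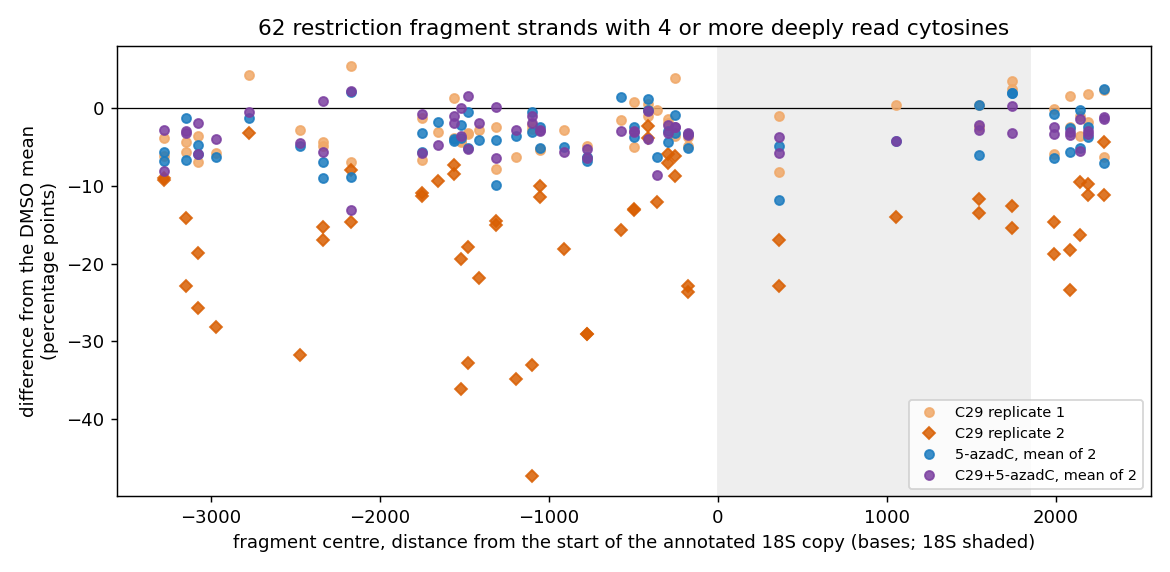
Difference from the DMSO mean in percentage points (y axis) for 62 restriction fragment strands with at least 4 cytosines of 1000 or more reads, by distance of the fragment's centre from the start of the 18S copy (x axis, 18S shaded). Each point is the mean over the cytosines of a fragment strand. C29 replicate 2 reaches -47.3 points, and the C29 replicate 1, 5-azadC and C29+5-azadC points lie between -13.1 and 5.38.

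The depth of C29 replicate 2 moved with its methylation on these fragment strands. Its reads per library total, divided by the mean of the other 7 libraries, ranked with its difference from DMSO at Spearman's rho = 0.706 and Pearson's r = 0.716 over 62 fragment strands, which share a library and, in pairs, a fragment. Fragments with fewer reads in that library tended to have lower methylation. Against the mean of the other 7 libraries in each case, rho was 0.708 for C29 replicate 2 and between -0.146 and 0.257 for the others. The length of the fragment did not rank with the difference (rho = -0.0996). The 36 cytosines on stretches of 29 bases or less between CCGG sites were read more in C29 replicate 2. There it had 3.73 times the reads of the other libraries (median over cytosines), and no other library exceeded 1.05 times. Fragments were defined from the reference sequence, and a read can run over a site that was not cut. On the plus strand, adjacent stretches of 6, 4 and 14 bases from 39846614 on had 25 to 1112, 25 to 1122 and 25 to 1280 reads. Whether these sites were cut was not tested. In the window as a whole its share of reads was 3.69%, within the range of the others. The part of depth and fragment yield in the low methylation of this library was not tested.

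**Figure D4:**
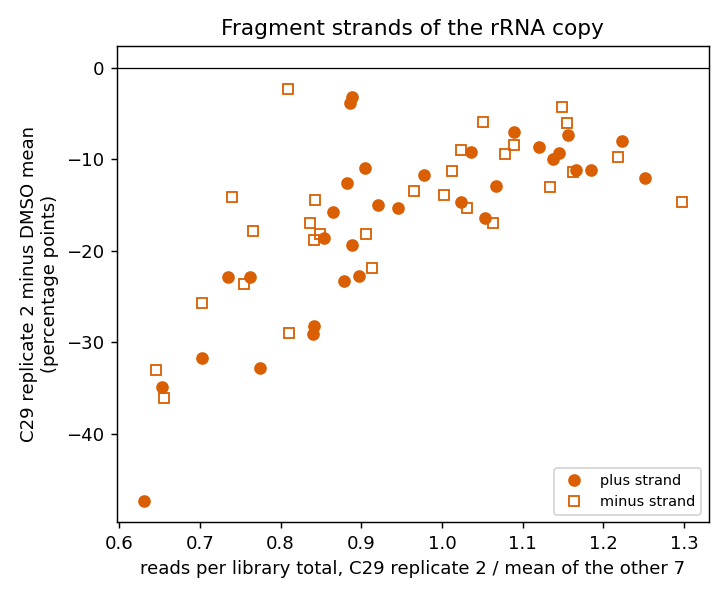
Difference of C29 replicate 2 from the DMSO mean in percentage points (y axis) against its reads per library total divided by the mean of the other 7 libraries (x axis), for 62 fragment strands (filled circles plus strand, open squares minus strand). The largest difference, -47.3 points, is at the lowest ratio, 0.630.

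A few deeply read places elsewhere give a scale for this library. At the 146 cytosines outside the window with 1000 or more reads in every library, C29 replicate 1 averaged 53.0% and replicate 2 49.2%, a gap of 3.74 points. The gap was 12.7 points in the rRNA window and 1.16 points over all cytosines tested. Among the 7239 windows of 10 kb with 20 or more cytosines, 513 (7.09%) had a gap between the C29 libraries as large as here. The gap of this window was 11.6 points in pooled reads. Cytosines elsewhere had far fewer reads, so gaps there hold more counting error and this share is not a like scale. The 95th percentile of the gap was 13.4 points for C29 and 12.2 to 12.97 points for the other groups. At the same 146 cytosines, 5-azadC changed the level by -0.839 points in the 4 against 4 comparison and by -2.05 points without C29 replicate 2.

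The cytosines with the lowest measured methylation stood out sharply from their neighbours. The plus strand cytosine at 39848454, downstream of 18S, was at 0% in 5 libraries and at 0.20%, 0.201% and 0.207% in C29 replicate 1, C29 replicate 2 and 5-azadC replicate 2, from 3719 to 6280 reads. The nearest cytosine before it on that strand was at 71.1% with DMSO. The unmethylated control read 0.216% to 0.329% over the libraries. The partner of 39848454 on the minus strand was not among the 544. A T in place of this cytosine in the copies would read the same as an unmethylated one, and this was not tested. The cytosines at 39844994 and 39844899, both plus strand and both the inner cytosine of a CCGG site, averaged 0.0864% and 0.443% with DMSO. Their partners on the minus strand of the same CpGs, 39844995 and 39844900, averaged 97.1% and 69.7%, so the low reading was on 1 strand only. Both plus strand cytosines lie at the first base of a fragment, next to the cut. On fragment 39844899 this was the only plus strand cytosine of the 544, with 363 to 747 reads. The 6 on its minus strand had 7208 to 12178 reads. Whether library preparation at the cut site gave these low readings was not tested. Both plus strand cytosines were higher in C29 replicate 2, at 41.2% of 153 reads and 19.9% of 493 reads, while no other library exceeded 2.14%. Only 4 of the 544 cytosines were below 5% with DMSO, and 3 of these lay in a CCGG site, although the 101 cytosines in such sites averaged 66.7% with DMSO, against 65.8% for the other 443.

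At the other end, 4 cytosines were at 100% in both DMSO libraries (39846620 and 39848724 on the plus strand, 39848735 and 39848737 on the minus strand), and the rule for naming takes the first 3 by position. All 4 were thinly read outside C29 replicate 2, with 13 to 135 reads. C29 replicate 2 gave 1122 reads at 39846620, 416 at 39848724 and 300 at both others. Of the 444 cytosines with 1000 or more reads in every library, none was above 84.0% with DMSO.

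The cytosines with the largest decreases with 5-azadC were also thinly read. At 39845646 on the plus strand, an inner CCGG cytosine in Gm26917, the libraries without the drug read 78.5%, 76.5%, 80.2% and 58.1% from 51 to 117 reads, and those with it 46.3%, 52.0%, 20.8% and 61.3% from 53 to 179 reads. The difference of the means was -28.3 points (F test, q = 0.625), and the groups overlapped through C29 replicate 2. Its partner on the minus strand, 39845647, was at 0% in all 4 libraries with 5-azadC and at 0%, 51.4%, 0% and 59.2% without it, from 21 to 76 reads, a mean difference of -27.6 points (F test, q = 0.510). Here DMSO replicate 2 and C29 replicate 2 alone carried the difference. This partner also lies in a CCGG site, and it was the only cytosine kept on the minus strand of fragment 39845626. Whether library preparation at the cut site gave its 0% readings was not tested, so the difference cannot be read as a loss of methylation. Next came 39845657 on the plus strand of the same fragment as 39845646, with -21.1 points (F test, q = 0.654). The fourth, 39848726 on the plus strand, differed by -17.9 points, and its lowest library, C29+5-azadC replicate 2, had 10.0% of 20 reads. The fifth was 39845654, on the same fragment strand as 39845646, with -15.6 points (F test, q = 0.867). Without C29 replicate 2 these 5 differences were -33.3, -17.1, -25.97, -14.6 and -20.3 points in this order.

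Increases were no firmer. At 39846614 on the plus strand the mean rose by 36.2 points with 5-azadC, but the DMSO libraries were at 3.45% of 29 reads and 58.0% of 50 reads, and the F test gave q of 1. At 39848737 on the minus strand the difference of 15 points came from C29 replicate 1, at 40% of 20 reads. The deepest was 39846902 on the plus strand, within 18S, at 51.5%, 47.5%, 51.8% and 32.4% without the drug and 60%, 77.0%, 47.4% and 61.6% with it, from 650 to 1270 reads. That difference was 15.7 points (F test, q = 0.680), and the groups overlapped through C29+5-azadC replicate 1. Without C29 replicate 2 it was 11.2 points, and those at 39846614 and 39848737 were 46.3 and 18.1 points.

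Promoters of the genes that run or silence ribosomal RNA transcription were also examined. The list held 32 genes of RNA polymerase I, its factors and the silencing complexes, such as Ubtf, which keeps active copies open, Baz2a, a subunit of the silencing complex NoRC, and Dnmt1, the maintenance methyltransferase. For 28 of them 66 tiles of 1 kb at a promoter could be tested. None was called at q below 0.05 in the F test for 5-azadC or C29 (0% of all tiles for both). At an unadjusted p below 0.05, 3 of the 66 tiles were lower and 1 higher with 5-azadC, against 12.5% and 1.33% of all tiles, and none with C29, against 2.61% lower and 3.73% higher. The median difference with 5-azadC was -0.162 points over the 66 tiles and -4.76 points over all tiles. Most were unmethylated in any case, 40 of 66 being below 10% without 5-azadC. The largest differences were -22.3 points in a tile of Kdm2b (F test, q = 0.332) and -21.9 points in a tile of Sirt1 (F test, q = 0.942), genes of a histone demethylase and a deacetylase. The Kdm2b tile held 2 cytosines. The Sirt1 tile held 1 cytosine, at 0% to 68.75% with 5-azadC and 38.7% to 93.75% without it. In both tiles the libraries with and without the drug overlapped.

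Of 353 other annotated rRNA genes, 4 had a cytosine with 10 reads in every library, 7 cytosines in all. Gm26486 on chromosome 5 (53418573-53418682) and Gm25606 on chromosome 9 (64048496-64048590) were at 100% in every library without 5-azadC. With the drug Gm26486 averaged 91.4%, with 100% in 1 of 4 libraries, and Gm25606 93.5%, with 100% in 1 of 4. The single cytosines at n-R5s30 and n-R5s34, 5S RNA genes on chromosome 16, ran from 0% to 100% between libraries at 11 to 84 reads. No direction could be read from those.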

How the data were processed

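Per the submitters' processing notes, reads were handled with FastQC 0.11.8, Trim Galore 0.4.1 and Bismark 0.20.0, and methylKit 1.7.0 was used, on mm10/GRCm38. The authors deposited, per library and cytosine, a methylated fraction and a count of reads, with no depth cap. Methylated reads were recovered as fraction times reads, within 0.01 of whole for all but 30 of 15435913 values. Cytosines with 10 reads in all 8 libraries were kept. Logistic models with overdispersion correction and an F test were fitted to all cytosines, 1 kb tiles and 10 kb windows, with Benjamini-Hochberg q over each set, in Python 3.11.15 with numpy 2.4.6 and scipy 1.17.1. The likelihood-ratio test without correction followed methylKit's default. limma 3.58.1 in R 4.3.3 and blastn 2.17.0 were also used. Reads of many rRNA copies fall on this 1 reference copy, so values are averages over copies. Reads that match other assembly sequences, 4 of them at 95% identity or more, may be placed elsewhere. Tests were checked on simulated reads, where the F test missed even large shifts when the spread between libraries was wide, so a missing call is weak evidence of no change. The members, lists and tests were chosen with earlier results of these data known. Named cytosines were the 3 highest and 3 lowest with DMSO and the 5 largest decreases and 3 largest increases with 5-azadC. Whether the pools of a group came from different mice is not given in the sources used here, and p-values measure the spread between pools. Sequences and annotation came from RefSeq GRCm38.p6 and GENCODE M21.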

Additional observations from a re-analysis of the deposited data

Results flagged for a closer look

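In arms of 4 libraries (with or without 1 drug), 32 of 104 checks found an outlying library. There the highest or lowest library was separated from the other 3 by a gap above Dixon's 95% critical share of the arm's range. Chance gives this in about 1 of 20 groups of untied, normally distributed values. That rate does not apply to the named cytosines. They were picked from these data for extreme values, and some have libraries tied at 0% or 100%. The 26 items checked share reads and libraries.

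Most of these rest on C29 replicate 2, the lowest library of its arm. Among libraries with C29 it was at 50.5% over all 544 cytosines (others 62.1% to 63.6%), at 48.8% on the plus and 52.4% on the minus strand, at 49.4% upstream of 18S and 52.6% in 18S, and at 45.5%, 49.98%, 49.9% and 51.1% in the first 4 tiles of 1 kb. Among libraries without 5-azadC it was also apart at 48.8% on the plus strand, at 49.98% in the second tile and at 54.1% in the fifth. It was the highest library at the cytosines 39844994 (41.2%, others at most 0.341%) and 39844899 (19.9%).

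The other separations are at single cytosines, thinly read except for 39848454. At 39845646 C29 replicate 2 was lowest without 5-azadC, at 58.1%. At 39845647 C29 replicate 2 was at 59.2% and DMSO replicate 2 at 51.4%, with the rest of their arms at 0%. At 39848735 C29 replicate 2 was at 94.7% and 5-azadC replicate 2 at 92.3%, with the others at 100%. At 39848737 5-azadC replicate 2 was again at 92.3%, and C29 replicate 1 was at 40%. At 39848724 C29 replicate 1 was at 71.8% and 5-azadC replicate 2 at 82.6%. At 39848726 C29+5-azadC replicate 2 was at 10.0%. At 39848454, with 3719 to 6280 reads, 5-azadC replicate 2 was at 0.207% with the others of its arms at 0%.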

How the results depend on the processing

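Of 133 alternative values for 16 results, 112 kept their direction and side of the threshold, 7 were weaker, 10 stronger and 4 reversed. The mean difference with 5-azadC ran from -2.53 to 2.67 points as each library was left out, that of the 10 kb window from -2.42 to 2.32 points and the median over cytosines from -2.44 to 2.31 points. Each lowest value, and each reversal among these, came from leaving out C29 replicate 2. The cytosines lower at an unadjusted p below 0.05 numbered 2 to 74, with 74 without C29 replicate 2, 3 without either DMSO library and 2 without 5-azadC replicate 2. Without the 0.1% of cytosines of highest coverage, which leaves 22 of the 544, the window was at -6.77 points (q = 0.464). Without the overdispersion correction the window passed at an unchanged 0.913 points, as did 6 tiles and 342 cytosines, while 106 cytosines were lower (19.5%, against 29.9% of all) and 265 higher at an unadjusted p below 0.05.

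Against DMSO, a minimum of 10 points gave 32 cytosines for 5-azadC (against 27.0% of all), 187 for C29 (22.9%) and 28 for C29+5-azadC (25.9%), and the F test gave 0 for each. Leaving out a library gave 7 to 10 for 5-azadC, 6 to 99 for C29 (99 without C29 replicate 1) and 2 to 8 for C29+5-azadC (2 without DMSO replicate 2, 8 without C29+5-azadC replicate 1). The C29 difference of the 10 kb window ran from -5.16 to -1.17 points. Leaving out a library, the group means differed from DMSO by -15.4 to -2.75 points (C29), -5.22 to -2.39 (5-azadC) and -3.83 to -2.33 (C29+5-azadC).

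Replicate differences correlated at -0.00447 to 0.00718 between groups over all cytosines and at -0.119 to 0.213 over the 544. Most cytosines had few reads, so these values cannot settle whether the replicate numbers pair the libraries. With the replicate block and C29 in the model, the window difference stayed at 0.913 points (q = 0.942), 0 tiles and 0 cytosines were called, and 4 were lower at an unadjusted p below 0.05. limma gave a difference of 0.0481 in log2 ratio for the window (q = 0.9994), 0 cytosines called and 4 lower at an unadjusted p below 0.05. The interaction was 8.70 points, and 2.88 points without C29 replicate 2. That value, the tiles and the count below both DMSO libraries without C29 replicate 2 were added after seeing the data. Depth limits the 40 cytosines with fewer than 100 reads in a library.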
